A study of Homo sapiens with 12 samples.

Results

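Peaks on IGF2 and 9 further genes of insulin-like growth factor signalling (IGF1R, IGF2R, INSR, IRS1, IRS2, IGFBP1, IGFBP2, IGFBP4 and GRB10) were examined in RNA immunoprecipitation sequencing (RIP-seq) of METTL16, eIF3a and eIF3b. Peaks were taken by gene name, and these are 10 of the 10830 gene names that carried a peak in at least 1 of 6 lists. The 10 genes were chosen on measured values, namely their peaks in these same lists and the rank of IGF2, so their presence, enrichment and rank are given as a description with no test. They carried 202 peaks over the 6 lists, of which 150 lay within a single exon block. The narrowest covered 60 exonic bases, the median peak 211 and the widest 4606. All 202 lay on the strand of their gene and none of their bases fell off annotated exons.

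All samples came from HepG2, a long-established cell line from a human liver tumour. The 3 stable lines overexpressed METTL16, eIF3a or eIF3b with a Flag tag (METTL16 from pmiRNA1-3XFlag-METTL16, the eIF3 subunits from pSIN4-3XFlag vectors), so each pull-down was made from cells with added protein. The cells were crosslinked with ultraviolet light before lysis. The labels give a Flag antibody for the METTL16 and eIF3b pull-downs and an eIF3a antibody for the eIF3a pull-down, while the names of the deposited lists mention Flag for all 3. If the labels hold, the antibody and the protein cannot be told apart where eIF3a is set beside the others. METTL16 is an RNA methyltransferase, and eIF3a and eIF3b are subunits of a translation initiation factor that binds the small ribosomal subunit. The series held 12 samples: 2 pull-downs and 2 inputs for each of 3 proteins. Each of the 6 pull-downs had its own peak list, called against input RNA. No list of a control antibody was used here, so recovery through the protein and recovery of an RNA by any pull-down cannot be told apart for peaks found in all 6 lists.

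Insulin-like growth factors are secreted hormones that drive growth of fetal and tumour tissue. IGF2, the fetal ligand, signals through the receptor tyrosine kinases IGF1R and INSR and is cleared by IGF2R, which carries it to lysosomes. Binding proteins of the IGFBP family hold the ligands in the blood and tissue fluid, and the liver is a main source of IGFBP1. Inside the cell, IRS1 and IRS2 dock on the active receptors and pass the signal on, while GRB10 binds the same receptors and dampens it. In liver cancer, IGF2 is known to be re-expressed from its fetal promoters, but promoter use in these cells was not measured here.

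The sequences on which the results turn are shown first. They were read from the GRCh38 reference, 5′ to 3′ on the transcript strand. The start codons that lay under a peak in both lists of at least 1 protein are given with their flanks within the exon, with ATG in capitals. They lie at chr11:2135506-2135529 (IGF2, minus strand), chr19:7293874-7293903 (INSR, minus strand), chr2:226798721-226798750 (IRS1, minus strand) and chr7:45888641-45888670 (IGFBP1, plus strand).
IGF2 start: acaccaATGggaatcccaatgggg
INSR start: gctcccgcagccATGgccaccgggggccgg
IRS1 start: ggcggtggcagcATGgcgagccctccggag
IGFBP1 start: tcgcgcctggagATGtcagaggtccccgtt

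METTL16 is known to methylate an adenosine within ACAGAGA, so the sites with these letters are shown next, in capitals. The search covered the transcript strand only, and a match is a description of letters. The paper describes the RNAs that METTL16 methylates as structured, and structure was not examined here, so a match is not read as a METTL16 target. The 2 matches that lay under a peak in all 6 lists and the 2 coding matches under a peak in at least 2 lists are printed. They are at chr11:2131143-2131149 (IGF2, 3′ UTR, minus strand), chr15:98960840-98960846 (IGF1R, 3′ UTR, plus strand), chr15:98916725-98916731 (IGF1R, coding, plus strand) and chr2:226797079-226797085 (IRS1, coding, minus strand).
IGF2 site: tttccaccatgACAGAGAtgcccttgtga
IGF1R 3′ UTR site: cctaggggtagACAGAGAtgtaccaaacc
IGF1R coding site: ttgaggaggtcACAGAGAaccccaagact
IRS1 site: ttgaggagtacACAGAGAtgatgcctgcc

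The member stretches below were under a peak in every list that is named for them later. They are coding sequence: exon 3 of IGF2 at chr11:2133517-2133665 (6 lists), exon 1 of IRS1 at chr2:226797922-226798012 (6 lists), and exon 22 of INSR at chr19:7117129-7117369 (5 lists). All run on the minus strand.
IGF2 exon 3: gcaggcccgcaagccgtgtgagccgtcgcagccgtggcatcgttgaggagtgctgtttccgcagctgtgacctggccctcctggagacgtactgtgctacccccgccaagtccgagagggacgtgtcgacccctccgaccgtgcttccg
IRS1 exon 1: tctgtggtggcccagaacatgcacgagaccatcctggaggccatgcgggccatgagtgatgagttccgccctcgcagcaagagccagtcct
INSR exon 22: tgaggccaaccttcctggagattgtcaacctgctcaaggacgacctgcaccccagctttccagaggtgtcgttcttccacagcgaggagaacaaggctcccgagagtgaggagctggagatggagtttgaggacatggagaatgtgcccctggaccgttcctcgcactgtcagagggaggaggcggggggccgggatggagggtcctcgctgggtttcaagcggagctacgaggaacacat

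The lists differed in length. METTL16 replicates 1 and 2 held 13199 and 13136 peaks, eIF3a held 21733 and 12921, and eIF3b held 20832 and 20027. The reads behind a peak are not in the lists, so the depth of a library is unknown and no counting interval can be given. eIF3a replicate 2 stood apart for the members. It had the fewest of them, its peaks on them lay furthest toward the 3′ ends, and their overlap with the other lists was the smallest. Of 10 genes typical of HepG2 and liver cells, 8 had a peak in at least 1 list and 2, SERPINA1 and HNF4A, in all 6, whereas TTR and APOH had none. Enrichment over input is not a measure of expression, so these lists neither show nor deny the cell type.

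The members were found in most lists. METTL16 replicates 1 and 2 had a peak on 9 and 10 of the 10 genes, beside 53.8% and 58.5% of all gene names with a peak anywhere. eIF3a replicates had a peak on 8 and 7 members, beside 75.4% and 48.3%. eIF3b replicates had a peak on 10 and 9 members, beside 74.5% and 69.9%. In both METTL16 lists 9 members had a peak, all but GRB10, where 42.6% of gene names did. In both eIF3a lists 6 members had a peak, where 42.4% of gene names did, and in both eIF3b lists 9 members, all but IGFBP2, where 60.0% did. The 5 genes with a peak in all 6 lists were IGF2, IGF1R, IGF2R, INSR and IRS1, the ligand, all 3 receptors and 1 adaptor, beside 25.2% of gene names. None of the binding proteins had a peak in all 6. Nothing is read from these shares, since the genes were picked on the same lists. Without eIF3a replicate 2, 7 members were in every remaining list.

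**Figure D1:**
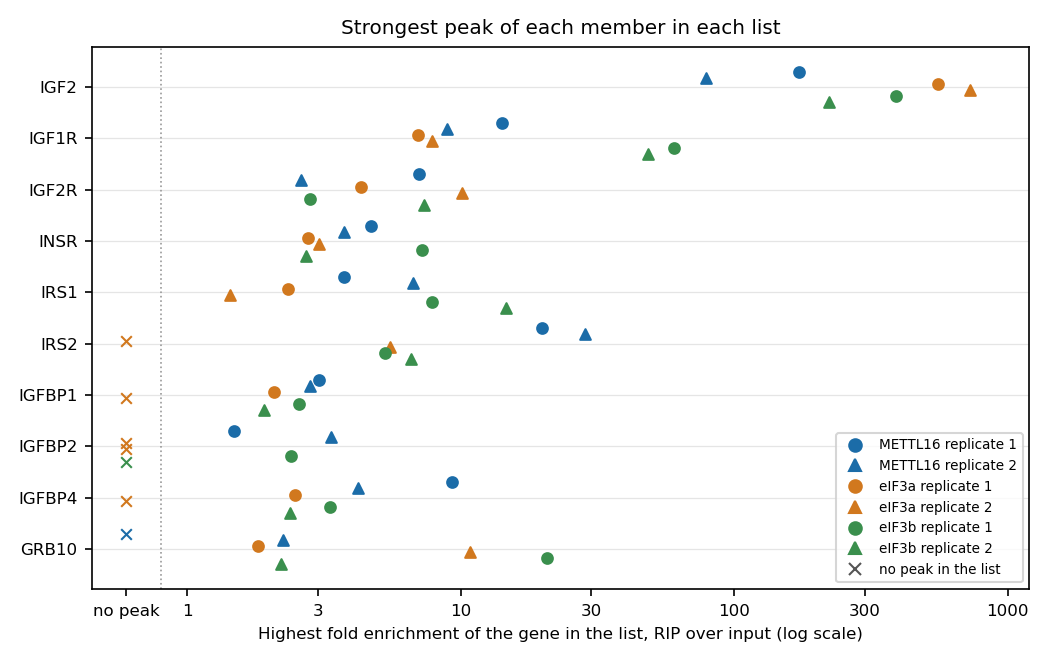
Highest fold enrichment (pull-down over input, log axis) of each of the 10 members in each of 6 lists, with colour for the protein, circles and triangles for replicates 1 and 2, and crosses for a list with no peak on the gene. IGF2 lies between 78.8 and 728 in all 6 lists, to the right of every other member, and the eIF3b points of IGF1R lie at 60.2 and 48.3.

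The ligand IGF2 (ENSG00000167244.22, chromosome 11, 2129112 to 2158391, minus strand) had 1 peak in each list. The fold enrichment was 172 and 78.8 in the METTL16 lists, replicates 1 and 2 in that order. It was 555 and 728 in the eIF3a lists and 390 and 222 in the eIF3b lists. The eIF3a values were the highest and the METTL16 values the lowest, with no overlap between the proteins. As log2, METTL16 gave 6.86 ± 0.80 (SD, n = 2), eIF3a 9.31 ± 0.28 and eIF3b 8.20 ± 0.57. Each protein was normalised to its own input, and 2 lists against 2 cannot give an exact permutation p below 0.33, so the order was not tested. Of the 2730 genes found in all 6 lists, 2.60% had both eIF3a values above the other 4, as IGF2 did. The share with METTL16 also lowest and no overlap between the proteins was not counted, so the full order is not read as particular to IGF2.

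IGF2 had the smallest p-value of all genes in every list. The log10 of its p-value, as deposited, was -61700 and -24600 for METTL16, -72800 and -200000 for eIF3a, and -68100 and -35800 for eIF3b. The next gene by p-value was HBB, a globin, in both METTL16 lists at -6480 and -12100, NCL at -1310 and NFATC3 at -7660 in the eIF3a lists, and EIF3B, the tagged gene itself, at -11700 and -3130 in the eIF3b lists. By fold enrichment IGF2 ranked 20 and 56 in the METTL16 lists, 1 in both eIF3a lists, and 9 and 2 in the eIF3b lists. IGF2 was therefore the leading gene by both measures in the eIF3a lists only, and in the METTL16 lists MEIS3 and ALAS2 had the highest folds, at 3420 and 2170.

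The IGF2 peak covered nearly the same bases each time. It held 4606 exonic bases in METTL16 replicate 1, 4576 in eIF3b replicate 1 and 4546 in the other 4 lists. Of all bases under an IGF2 peak, 98.7% were shared by all 6. The Jaccard index, bases shared by a pair of lists over bases in either, was 0.987 to 1 for IGF2 in both within-protein and between-protein pairs. Peaks that run over whole exons cannot place a contact within them.

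The 3 blocks nearest the 3′ end were identical in all lists. They were a 4112-base block at 2129112 to 2133223, which holds the end of the coding sequence and the 3′ UTR, the 149-base exon 3 printed above, and a 163-base block at 2135367 to 2135529 with the start codon. Together they held all 540 coding bases and 3878 bases of 3′ UTR, counting the stop codon with the UTR. The ACAGAGA site printed above, the only match in the canonical transcript, lies in the long block. The block nearest the 5′ end varied. It held 182 bases in METTL16 replicate 1, 152 in eIF3b replicate 1 and 122 in the other lists, all within a 242-base leader exon at 2147566 to 2147807. GENCODE assigns that exon to 2 IGF2 transcripts, neither of them the canonical one. No list had a block on the 1161-base first exon of the canonical transcript at 2138229 to 2139389, nor on any other annotated IGF2 leader exon. The annotation used for calling is not given in the sources used here. An exon missing from it could carry no peak, so an empty exon here does not show that the recovered RNA lacked it.

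Neighbouring annotation shares these exons. INS-IGF2, a readthrough gene on the same strand, covers 1180 of the 4606 bases, or 25.6%. On that strand an unnamed protein coding gene covers 2323, or 50.4%, and an unnamed long non-coding RNA gene 373, or 8.10%. IGF2-AS, an antisense RNA, overlaps 182 bases, 3.95%, all on the opposite strand. None of these had a peak under its own name. The library kit keeps strand, but whether the caller used it is not given in the sources used here. Reads of IGF2 and of the genes that overlap it on the same strand cannot be told apart.

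**Figure D2:**
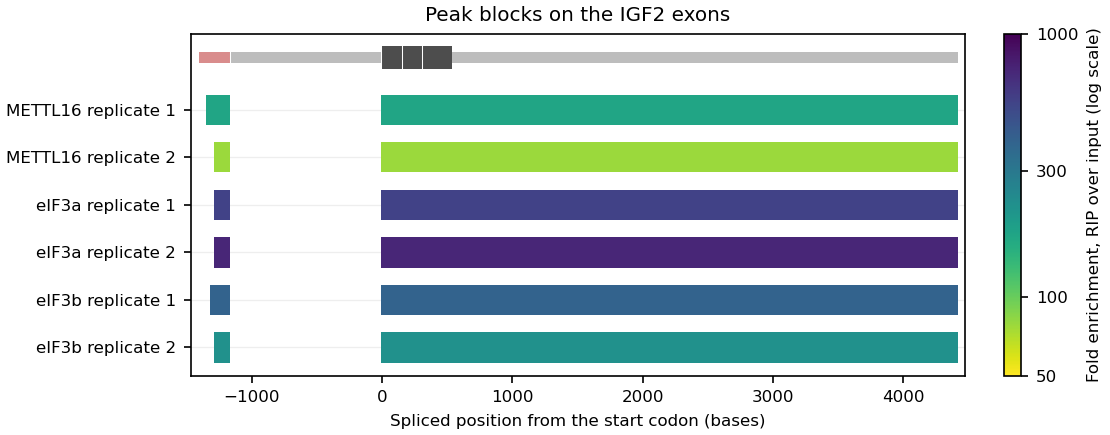
IGF2 peak blocks in the 6 lists on spliced exons, with position from the start codon in bases on the horizontal axis and fold enrichment as colour (log scale). The top bar shows exons, with coding sequence in dark grey, UTRs in light grey and the leader exon outside the canonical transcript in red. All 6 lists cover the coding sequence and the 3′ UTR whole, have no block on the canonical first exon and have one in the red exon, over 122 to 182 bases. The exons given to the peak caller are not known.

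The genes whose enrichment was most like that of IGF2 were found by the Euclidean distance between the 6 log2 folds over genes found in every list. The 5 nearest were DESI1 at a distance of 5.33, SGTB at 6.08, PLEC at 6.28, RIPPLY3 at 6.62 and TFDP2 at 6.83. All 5 were below IGF2 in most lists. DESI1, the nearest, had folds of 60.9 and 35.7 for METTL16, 67 and 58.1 for eIF3a, and 139 and 184 for eIF3b, and its highest values were thus in eIF3b rather than eIF3a.

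Of the receptors, IGF1R (ENSG00000140443.15, chromosome 15, 98648539 to 98964530, plus strand) had the most peaks. This kinase receptor transmits IGF1 and IGF2 signals. It carried 71 of the 202 member peaks, 14 and 11 in the METTL16 lists, 12 and 8 in the eIF3a lists, and 14 and 12 in the eIF3b lists. By the region that holds most of a peak, 11 lay in the 5′ UTR, 16 in the coding sequence and 44 in the 3′ UTR. So the ends of the IGF1R transcript held more of its peaks than the reading frame between them. The frame is only 4101 of the 12235 bases of the canonical transcript, so the UTRs are also the greater part by length.

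The strongest IGF1R leader peak, in exon 1, differed most between lists. It reached folds of 14.2 and 8.93 in the METTL16 lists, 6.99 and 6.43 in the eIF3a lists, and 60.2 and 48.3 in the eIF3b lists. Both eIF3b values were above the other 4 and the eIF3a values were the lowest. In the eIF3b lists the leader was a single peak of 1230 and 931 bases, whereas the other lists held separate leader peaks, the strongest 271 to 361 bases wide, and a fold is an average over its peak. Taking the highest fold on the gene, METTL16 gave a log2 value of 3.49 ± 0.47 (SD, n = 2), eIF3a 2.89 ± 0.12 and eIF3b 5.75 ± 0.22. Among the 2730 genes found in all 6 lists, 12.1% had both eIF3b values above the other 4. IGF1R and IRS1 were the 2 members that did. The share of genes with both eIF3a values lowest was not counted.

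Part of the IGF1R leader was under a peak everywhere. A stretch of 271 bases at chr15:98648569-98648839 and another of 181 at chr15:98649259-98649439 were under a peak in all 6 lists, both in the 5′ UTR of exon 1. The start codon itself was under a peak only in eIF3b replicate 1, whose leader peak ran on into exon 2. The remaining 6-list stretches were 5 pieces of the last exon, all 3′ UTR, of which the longest was 541 bases at chr15:98960092-98960632. The piece at chr15:98960812-98960962, 151 bases, holds the IGF1R 3′ UTR ACAGAGA site printed above. The coding site was under a peak in both METTL16 lists and eIF3b replicate 1. In all, 1536 IGF1R bases were in 6 lists, 18.3% of the 8403 bases under any IGF1R peak.

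In the 3′ UTR the strongest IGF1R peak gave folds of 7.15 and 7.42 for METTL16, 4.55 and 7.85 for eIF3a, and 5.53 and 8.6 for eIF3b. These values overlapped between the proteins, unlike those of the leader. By width, eIF3a replicate 2 stood apart: there the peak ran over 4259 bases at chr15:98958893-98963151, and in the other lists over 601 to 1081 bases. This list also had a 721-base coding peak from exon 1 to exon 3 at a fold of 5.59, where the strongest coding peak of the other lists gave 1.8 to 2.42. The stop codon was under a peak in METTL16 replicate 1 at a fold of 2.42, in the eIF3a lists at 1.8 and 1.84, and in the eIF3b lists at 2.14 and 2.18. METTL16 replicate 2 was the exception.

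**Figure D3:**
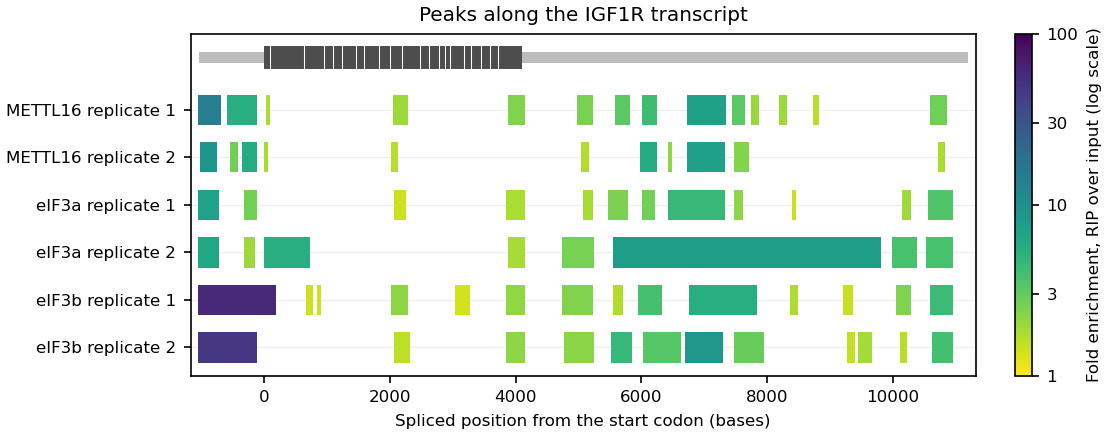
IGF1R peaks in the 6 lists along the spliced canonical transcript, with position from the start codon in bases on the horizontal axis and fold enrichment as colour (log scale). The top bar shows the coding sequence in dark grey and UTRs in light grey, with exon borders in white. Peaks sit in the leader and in the 3′ UTR in every list, the leader is darkest in both eIF3b lists (60.2 and 48.3), and eIF3a replicate 2 has a single 4259-base block in the 3′ UTR.

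INSR (ENSG00000171105.14, chromosome 19, 7112255 to 7294414, minus strand), the insulin receptor, had 28 peaks. Its highest fold was 4.69 and 3.75 in the METTL16 lists, 2.76 and 3.03 in the eIF3a lists, and 7.24 and 2.71 in the eIF3b lists, which overlap between the proteins. The position of the peaks differed more than their size. A leader peak was present in both METTL16 lists (folds of 4.69 and 3.75) and both eIF3b lists (7.24 and 2.54). Neither eIF3a list had a peak in the INSR 5′ UTR. Over all peaks the eIF3a lists also had the lowest 5′ UTR shares of bases, at 4.04% and 2.81%, against 5.22% to 7.25% in the METTL16 and eIF3b lists. The share of genes with the same split was not counted, so it is not read as particular to INSR.

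The 241-base stretch of INSR exon 22 printed above, which codes for the end of the kinase region and the C-terminal tail, was under a peak in 5 lists. The exception was eIF3a replicate 2, whose 5 INSR peaks lay wholly in the 3′ UTR. In eIF3a replicate 1, 70.6% of INSR peak bases were 3′ UTR, against 0 to 25.8% in the METTL16 and eIF3b lists. Both eIF3a values were thus above the other 4. Over all peaks the eIF3a lists also had the highest 3′ UTR shares, at 35.7% and 33.9%, against 22.4% to 32.8%. The order is thus not particular to INSR. The start codon of INSR was under a peak in 3 lists, namely both METTL16 lists and eIF3b replicate 1.

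IGF2R (ENSG00000197081.16, chromosome 6, 159969082 to 160113507, plus strand), the clearance receptor for IGF2, had 30 peaks of at most 331 bases. Its highest fold was 7.06 and 2.61 for METTL16, 4.34 and 10.1 for eIF3a, and 2.82 and 7.34 for eIF3b. The replicates of a protein had SDs of 0.86 to 1.02 on the log2 scale, against protein means of 2.10 to 2.73, so no order of the proteins stands out of the spread. A 180-base coding stretch of the last exon, at chr6:160104796-160104975, was under a peak in 4 lists, METTL16 replicate 1, eIF3a replicate 1 and both eIF3b lists, with folds of 1.74 to 2.48. No IGF2R base was under a peak in more than 4 lists. In eIF3a replicate 2, 6 of its 7 IGF2R peaks lay in the 3′ UTR, with folds up to 10.1, and in METTL16 replicate 2 all 4 lay in the coding sequence. None of the 4 ACAGAGA matches in IGF2R was covered whole by a peak. The match at chr6:160043192-160043198 lay partly under a coding peak of METTL16 replicate 2 that ended at 160043197.

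Of the adaptors, IRS1 (ENSG00000169047.6, chromosome 2, 226731312 to 226799820, minus strand) was covered mostly in its single large coding exon. Of 27 peaks, 23 lay in the coding sequence, 4 in the 3′ UTR and none mainly in the 5′ UTR. The highest coding fold was 3.76 and 6.7 for METTL16, 2.33 and 1.43 for eIF3a, and 7.87 and 4.43 for eIF3b. Both eIF3a values were the lowest, while METTL16 and eIF3b overlapped. How many other genes had this order was not counted, so it is not read as particular to IRS1. Taking all regions, eIF3b replicate 2 had a fold of 14.7, from a 150-base 3′ UTR peak whose log10 p-value was only -3.09, and the place of IRS1 among genes higher in both eIF3b lists rests on that peak.

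IRS1 positions recurred. The 91-base stretch of exon 1 printed above was under a peak in all 6 lists, and in eIF3a replicate 2 a 121-base peak over it was the only IRS1 peak. The start codon was under a peak in METTL16 replicate 1, eIF3a replicate 1 and both eIF3b lists. The coding ACAGAGA site was under a peak in eIF3a replicate 1 and eIF3b replicate 2 and in neither METTL16 list. The eIF3b peaks were the broadest, 1347 bases in replicate 1 and up to 1138 bases in replicate 2, against at most 569 bases in the other lists. Widths were not compared in this way for other genes, so this is not read as particular to IRS1.

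IRS2 (ENSG00000185950.9, chromosome 13, 109752695 to 109786583, minus strand) gave the highest folds after IGF2 and IGF1R but the least agreement. Its highest fold was 19.9 and 28.6 for METTL16, 5.51 in eIF3a replicate 2 with no peak in eIF3a replicate 1, and 5.3 and 6.61 for eIF3b. METTL16 was above eIF3b in both replicates. Yet the METTL16 replicates placed these peaks apart: a 60-base leader peak in replicate 1 and a 270-base coding peak in replicate 2. No pair of replicates shared a base of IRS2, the eIF3a pair for want of a peak in replicate 1, and no base was in more than 2 lists. Its strongest log10 p-value in a list ran from -2.66 to -7.14.

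GRB10 (ENSG00000106070.20, chromosome 7, 50590063 to 50793462, minus strand), the inhibitory adaptor, had 8 peaks and none in METTL16 replicate 1. Its highest fold was 2.25 in METTL16 replicate 2, 1.82 and 10.8 in the eIF3a lists, and 20.6 and 2.2 in the eIF3b lists. On the log2 scale the SD between replicates was 1.82 for eIF3a and 2.28 for eIF3b, against means of 2.15 and 2.75. The value of 20.6 came from a 211-base peak in a leader exon outside the canonical transcript, and that of 10.8 from a 629-base peak over 5 blocks with a log10 p-value of -146. No GRB10 base was in more than 3 lists.

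The 3 binding proteins among the members had folds of 1.49 to 9.27. IGFBP1 (ENSG00000146678.10, chromosome 7, 45888360 to 45893660, plus strand), which holds IGFs in plasma and is made by liver cells, had folds of 3.03 and 2.81 for METTL16, 2.07 in eIF3a replicate 1, and 2.57 and 1.91 for eIF3b. eIF3a replicate 2 had no peak. Its main peak ran from exon 1 into exon 2 in each of the 5 lists, and 342 bases of exon 1, at chr7:45888660-45889001, were common to them. The peak began in the 5′ UTR and covered the start codon in both METTL16 lists and eIF3b replicate 1, and began inside the coding sequence in the other 2.

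IGFBP1 and IRS2 ranked in opposite ways. Among genes of a list, IGFBP1 stood at percentiles of 9.92 to 33.8 by fold but at 96.0 to 98.4 by p-value, with log10 p-values of -100 to -200. IRS2 stood at 55.5 to 95.4 by fold and at 3.43 to 40.3 by p-value. A small p-value can thus go with a modest fold, and the reads behind each are not in the lists.

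IGFBP4 (ENSG00000141753.7, chromosome 17, 40443450 to 40457725, plus strand) had folds of 9.27 and 4.21 for METTL16, 2.48 in eIF3a replicate 1, and 3.32 and 2.38 for eIF3b, and no peak in eIF3a replicate 2. Both METTL16 values were above those of the other lists with a peak. A 61-base coding stretch of exon 1, at chr17:40443990-40444050, was common to all 5. Peaks in the coding sequence numbered 7 and in the 3′ UTR 5, and its start codon was under none. IGFBP2 (ENSG00000115457.10, chromosome 2, 216632828 to 216664436, plus strand) had a single peak in each of 3 lists, with folds of 1.49 and 3.36 for METTL16 and 2.39 in eIF3b replicate 1. All 3 spanned the border of exons 2 and 3 and shared 121 bases.

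**Figure D4:**
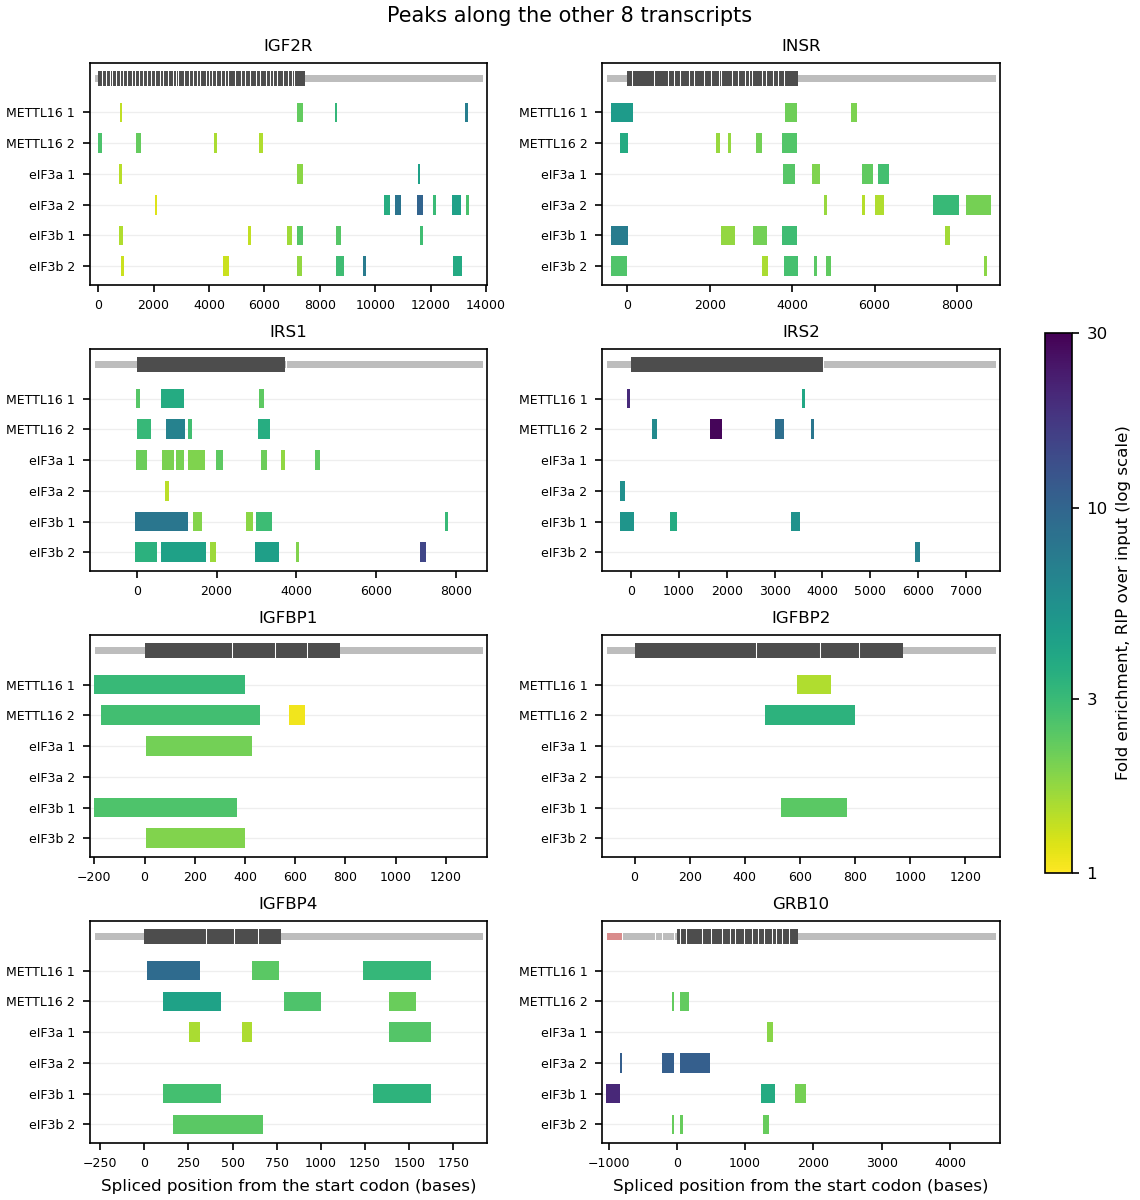
Peaks of the other 8 members in the 6 lists along spliced transcripts, with position from the start codon in bases on each horizontal axis and fold enrichment as colour (log scale). The top bar of each panel shows coding sequence in dark grey, UTRs in light grey and an exon outside the canonical transcript in red. IRS1 and IGFBP1 peaks stack at the same places, IRS2 and GRB10 peaks do not, and in eIF3a replicate 2 the INSR peaks and 6 of 7 IGF2R peaks lie in the 3′ UTR.

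Across the members, start and stop codons were compared with all genes that had a peak in both lists of a protein. The start codon was under a peak in both METTL16 lists for 3 of 9 members, IGF2, INSR and IGFBP1, where 12.9% of such genes had this. It was so in both eIF3a lists for 1 of 6, IGF2, beside 5.60%, and in both eIF3b lists for 2 of 9, IGF2 and IRS1, beside 14.3%. The stop codon was under a peak in both METTL16 lists for 1 of 9 members, IGF2, beside 13.6%. It was so for 2 of 6 in the eIF3a lists and 2 of 9 in the eIF3b lists, IGF2 and IGF1R each time, beside 9.89% and 17.4%. IGF2 thus entered every one of these counts, through a peak that covered its whole reading frame.

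By transcript region, member peaks held more 3′ UTR than the lists as a whole. The 3′ UTR share of member peak bases was 56.3% and 47.7% in the METTL16 lists, 62.3% and 80.0% in the eIF3a lists, and 45.5% and 55.2% in the eIF3b lists. Over all peaks the share was 22.4% to 35.7%, so every list showed a higher share for the members. The canonical transcripts of the 10 members are themselves 51.1% 3′ UTR and 40.5% coding. IGF2 weighs heavily in these sums: without it, METTL16 had a mean 3′ UTR share of 31.8%, eIF3a 63.0% and eIF3b 36.9%. The coding share was 29.5% and 42.8% in the METTL16 lists, 31.9% and 13.8% in the eIF3a lists, and 41.0% and 35.0% in the eIF3b lists. The eIF3a mean, 22.8% ± 12.8 (SD, n = 2), lay below 36.2% ± 9.41 for METTL16 and 38.0% ± 4.22 for eIF3b, but eIF3a replicate 1 lay between the METTL16 replicates.

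**Figure D5:**
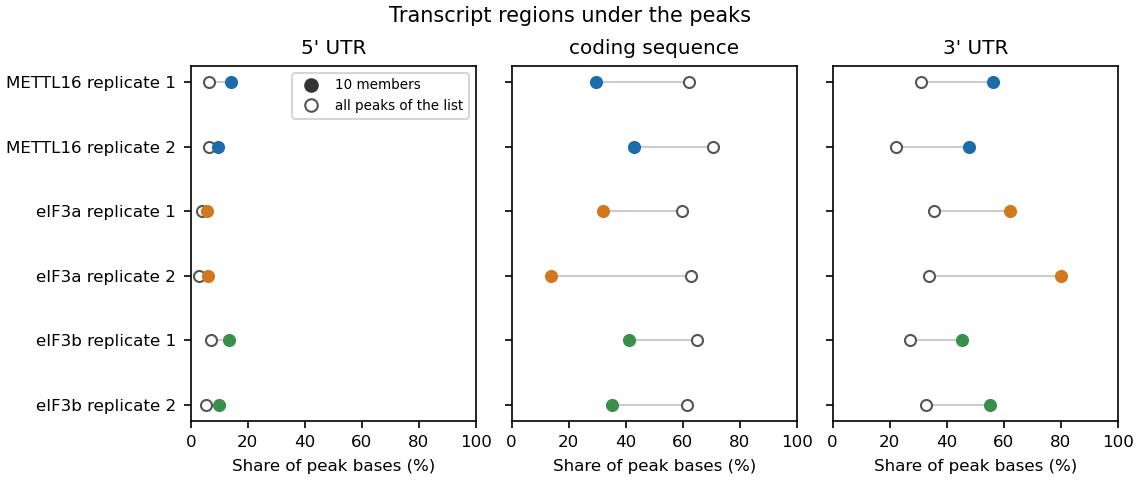
Share of peak bases (%) in the 5′ UTR, coding sequence and 3′ UTR for each of the 6 lists, with filled points for the 10 members and open points for all peaks of the list. In every list the members lie to the left of all peaks for coding sequence and to the right for the 3′ UTR, most of all in eIF3a replicate 2 (80.0% 3′ UTR).

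The 5′ UTR share of member peak bases was 14.2% and 9.50% for METTL16, 5.79% and 6.21% for eIF3a, and 13.5% and 9.81% for eIF3b. Both eIF3a values were below the other 4. Over all peaks the eIF3a lists were also lowest, at 4.04% and 2.81%, against 5.22% to 7.25%. The low share is thus not particular to the members.

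Agreement on member positions between replicates overlapped with that between proteins. The median Jaccard index of member peak bases was 0.300 for pairs of replicates and 0.195 for pairs of different proteins, with an SD of 0.173 over the 3 within-protein pair medians. These were 0.348 for the METTL16 pair, 0.361 for the eIF3b pair and 0.0550 for the eIF3a pair. Restricted to members with a peak in both lists of a pair, the medians were 0.348 within and 0.346 between proteins. Between eIF3a replicate 2 and each METTL16 list the median was 0. Without that list the between-protein median was 0.352. IGF1R, with 0.410 to 0.615 within and 0.261 to 0.601 between proteins, agreed more by its medians (0.532 and 0.488) than IRS1 (0.457 and 0.346).

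By fold enrichment the members as a group were near the middle. By their highest fold they stood at a median percentile of 56.8 among the genes of their lists, and at 49.7 without IGF2, where 50 is the middle by construction. The list medians by fold ran from 25.3 in eIF3a replicate 1 to 76.8 in eIF3a replicate 2. Ranked by smallest p-value, the median percentile of the same members and lists was 75.4, so the middle place holds for fold only. Of the 5 members found in all 6 lists, 0 had both METTL16 values above the other 4, beside 11.2% of the 2730 such genes. Of the members missing from some lists, IRS2, IGFBP1 and IGFBP4 had both METTL16 values above every other list in which they had a peak. A missing list leaves fewer values to exceed, and the share of all genes under this rule was not computed. Nothing is therefore read from these genes.

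The GC content of member peaks was 61.3% and 61.8% for METTL16, 57.0% and 53.6% for eIF3a, and 61.1% and 58.4% for eIF3b, beside 59.8%, 61.8%, 54.3%, 53.8%, 59.1% and 54.7% for all peaks in the same order. Within transcripts, bases under a peak were richer in GC than uncovered bases in 8 of 10 members, for example 65.9% against 36.4% in IGFBP1 and 74.3% against 55.5% in IRS2. The exceptions were IGF2, at 57.8% against 72.5%, whose uncovered bases are the canonical first exon, and IGFBP2, at 63.2% against 68.7%. This comparison within transcripts was not made for genes outside the members, so the count is not read as particular to them.

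Matches to ACAGAGA were few. The members' transcripts held 12, and those covered whole by a peak were 1 in IGF2, 3 in IGF1R, 1 in INSR and 1 in IRS1. Each list covered 3 or 4, which is 0.233 to 0.259 per kilobase of member peak, beside 0.134 to 0.182 for all peaks. The IGF2 site and 1 IGF1R site are counted in each list, so the lists are not separate evidence. Of windows of 30 bases from the middle of all 101848 peaks at least that long, 0.386% held the letters.

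The wider pathway was examined through a list of 54 further genes, of which 14 had no peak in any list. Of the 40 with a peak, 23 had one in all 6 lists, or 57.5%, beside 25.2% of all gene names with a peak. In both METTL16 lists there were 26 of the 40, or 65% beside 42.6%. In both eIF3a lists there were 27, or 67.5% beside 42.4%, and in both eIF3b lists 33, or 82.5% beside 60.0%. The list was put together by hand with earlier results known, so nothing particular to it is read from these shares. IGF2BP1, IGF2BP2 and IGF2BP3, proteins that bind IGF2 mRNA, were in all 6 lists at folds of 1.92 to 6.27. So were HMGA2, a chromatin protein that raises IGF2 transcription, at 5.97 to 9.26, and CTCF, which insulates the IGF2 locus, at 1.85 to 3.09. GIGYF1 and GIGYF2, which bind GRB10 and act in translational repression, were in all 6 lists at folds of 8.73 to 32.4 and 5.55 to 12.5.

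Of 13 adaptors in that list, 8 had a peak in all 6 peak lists, 3 in some and 2, IRS4 and NCK1, in none. GAB1 gave 4.19 to 47.1, GAB2 6.4 to 24.8, SH2B2 3.55 to 10.7 and SH2B1 2.95 to 14.7. GRB2, SOS1, SHC1 and CRK, which link the receptors to RAS and other pathways, had lower maxima, 6.24, 5.99, 2.55 and 7.15. The phosphoinositide branch gave PIK3R2, a regulatory subunit, at 3.39 to 9.11 and PDPK1, a kinase that activates AKT, at 2.66 to 6.47. Of the genes that restrain or modify receptor signalling, SOCS3, PTPN11 and PTPRF were in all 6 lists at 3.1 to 10.1, 3.28 to 13.1 and 2.21 to 8.92. The proprotein convertases FURIN and PCSK6, which cleave receptor and ligand precursors, gave 3.99 to 15.5 and 3.12 to 15.9, and STC2, an inhibitor of IGFBP cleavage, gave 1.57 to 12.2.

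The genes with no peak in any list were IGF1, INS-IGF2, H19, INSRR, IGFBP5, IGFBP7, IGFALS, PAPPA, PAPPA2, STC1, IDE, IRS4, NCK1 and SOCS2. The other ligand of IGF1R, IGF1, and the imprinted neighbour of IGF2, H19, are thus among them. A list with no peak does not separate an RNA that was not recovered from one that was too scarce to call. In all, 10309 of the 10830 gene names with a peak were matched to a protein coding gene, which H19 is not. Of the binding proteins outside the members, IGFBP3 reached a fold of 22.3 and IGFBP6 19.8, both in eIF3a replicate 1, and these were named after their values were seen.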

How the data were processed

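Peak lists from HepG2 RIP-seq of 3 proteins were used as deposited, 1 list for each of 6 pull-down samples, without pooling. The authors depleted ribosomal RNA, made stranded libraries, aligned with STAR to GRCh38 and ran exomePeak at its default settings to find peaks. Versions, the annotation used for calling and the pairing of inputs with pull-downs are not given in the sources used here. The deposited lists give for each peak its exonic blocks, a p-value, 2 log10 scores (of that p-value and of its adjusted form) and a fold enrichment, the ratio of pull-down to input. Inputs entered only through the authors' calling.

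Groups came from the sample labels. Peaks were assigned to members by gene name, and to 5′ UTR, coding sequence and 3′ UTR with GENCODE release 44 on the same assembly (all 24 chromosomes with peaks matched), canonical transcript first. Of 10830 gene names, 10309 matched a protein coding gene there. Starts were written 1-based. A gene's enrichment in a list was the highest fold of its peaks. The members, the pathway list and all rules were chosen with earlier results of these data known. The text names all 10 members, pathway genes with a peak in all 6 lists or in none, and the 5 genes nearest IGF2. No test was run. Alternatives were a fold of at least 4, the 5000 peaks with the smallest p-value per list, other counting rules, the members without IGF2, and each list left out. Interval code was tested on simulated data. Python 3.11.15 and numpy 2.4.6 were used. Labels call the samples replicates, so the spread is that between 2 pull-downs per protein.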

Additional observations from a re-analysis of the deposited data

How the results depend on the processing

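Of 94 alternative values for 17 results, 73 stayed within the limits set for them and 21 moved. Part of the 73 could not have moved. For a mean of 2 lists the limit was their SD, and leaving out either list always stays within it. IGF2 had a single peak per list and rank 1 by p-value in each, so weighting its peaks or leaving a list out changed nothing. The count of 73 is therefore no measure of stability. A fold of at least 4 left 4, 3 and 4 members in both METTL16, eIF3a and eIF3b lists and 2 (IGF2 and IGF1R) in all 6. It gave Jaccard medians of 0 within and 0 between proteins, coding shares of 19.9% (METTL16) and 25.1% (eIF3b), and 3′ UTR shares of 65.5% (METTL16) and 57.8% (eIF3b). With peaks counted once each by their centre, the coding share was 53.8% for METTL16 and 47.7% for eIF3b, and the 3′ UTR share 34.4% for METTL16 and 56.1% for eIF3a. Without IGF2, the coding share was 51.2% and 48.1% and the 3′ UTR share 31.8% and 36.9% for METTL16 and eIF3b. Ranked by fold, the lowest place of IGF2 was 56. With each list left out in turn, members in all lists ranged from 5 to 7, and the within-protein Jaccard median from 0.101 (without either eIF3b list) to 0.348. No test was run, so none was paired. Over between-protein pairs with the same replicate number (a replicate block) the Jaccard median was 0.261, against 0.195 over all such pairs. The reads behind a peak are not in the lists, so what depth limits cannot be given.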
